A study of Mus musculus with 2 samples.

Results

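Stromal-2 is the smaller of the 2 stromal labels in the deposited annotation of single cells from the mouse esophagus, gastroesophageal squamocolumnar junction (GE-SCJ) and stomach. Its members were taken by the label alone and number 139 of 7808 cells, or 1.78% (1.50 to 2.10%). They carried the genes of a mesothelial surface. *Upk3b* stood at 864 CPM (UMI counts scaled to a sum of 1e+06 per group), *Wt1* at 388 CPM and *Msln* at 331 CPM, against 0.924, 4.19 and 2.34 CPM in the 3442 cells labelled Stromal. All 139 cells fell into 1 cluster at the coarser of the authors' 2 resolutions, which held no other cell, and into 1 cluster with 2 other cells at the finer.

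The study took the 3 regions from wild type C57BL/6 mice at embryonic day 15 (E15), at E19, as pups of 2 days and as adults at 8 weeks, with no treatment and no engineered allele named. Cells of each region and stage received an oligonucleotide tag and were then sequenced together with 10x Genomics 3′ chemistry as counts of unique molecular identifiers (UMIs). The labels list 6 mice at E15, 2 at E19, 2 pups and 3 adults, whereas the protocol speaks of 3 mice combined. Mice were pooled within a tag, so each of the 11 tags is 1 sample, no comparison below has a replicate or a test, and the adult stomach is not analysed here. Throughout, a level in CPM pools the cells of a group before scaling. A log2 ratio was formed from 2 such sums after adding 1 UMI to each. Its 95% interval was formed from the same raised counts, conditional on the sum of both. For shares of cells, 95% Clopper-Pearson intervals are given. All these intervals cover counting error only, not differences between mice.

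Mesothelium is the single layer of flat cells that covers the outer surface of the gut and lines the body cavities. It derives from mesoderm, yet it holds keratins, junctions and a basement membrane as an epithelium does, and it coats its free surface with glycoproteins that let organs slide. In the embryo the transcription factor WT1 marks this layer, and cells that leave it can contribute to fibroblasts and smooth muscle of the organ beneath.

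Cells were assigned to region and stage by the 15-base tag that they carried, so the tags of the 5 samples with at least 10 Stromal-2 cells are shown first. No base is capitalised in them. Any of these oligonucleotides differed from every other tag of the experiment at 8 or more positions.
E15 stomach: ccgtcgtccaagcat
E19 GE-SCJ: cgcgatatggtcgga
E19 stomach: aagatgaggtctgtg
pup GE-SCJ: cggattccacatcat
pup stomach: gttgatctataacag

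The 250 bases upstream of 3 genes are shown as well. Of the 9 genes with the highest ratio over every other label that had a promoter entry, these 3 held the letters GGAATG and the other 6 (*Lrp2*, *Muc16*, *Rspo1*, *A730046J19Rik*, *Col4a4* and *Ildr2*) did not. They are RefSeq starts on GRCm38.p6, written 5′ to 3′ on the gene's own strand. Capitals mark GGAATG or its reverse complement, the letters of a TEAD-type motif.
Upk3b, chr5:136038246-136038495, plus strand: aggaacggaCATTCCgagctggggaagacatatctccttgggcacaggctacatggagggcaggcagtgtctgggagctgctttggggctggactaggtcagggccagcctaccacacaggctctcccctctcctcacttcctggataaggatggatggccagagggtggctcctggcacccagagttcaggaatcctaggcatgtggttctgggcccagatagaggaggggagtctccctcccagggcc
Lrrn4, chr2:132880863-132881112, minus strand: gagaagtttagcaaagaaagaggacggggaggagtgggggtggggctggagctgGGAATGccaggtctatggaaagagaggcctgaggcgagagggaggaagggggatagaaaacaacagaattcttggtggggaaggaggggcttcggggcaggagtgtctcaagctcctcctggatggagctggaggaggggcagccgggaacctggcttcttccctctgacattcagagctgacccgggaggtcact
Cldn15, chr5:136967619-136967868, plus strand: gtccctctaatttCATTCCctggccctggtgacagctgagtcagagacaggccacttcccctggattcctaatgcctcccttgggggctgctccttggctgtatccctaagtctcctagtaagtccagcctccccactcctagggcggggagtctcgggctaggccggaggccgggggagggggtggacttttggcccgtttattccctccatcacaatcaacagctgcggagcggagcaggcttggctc

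Of 27 genes looked up, 21 had a promoter entry, and 12 genes of the mesothelial list had 15 promoters between them. GGAATG, searched on both strands, was found in 4 of the 15, against 12.6% of all 32851 promoters of that length. Over all 24 promoters looked up it was found in the same 4, or 16.7%, close to the share of all promoters. GCGTGGGNG, the letters of a WT1 and EGR type motif, was found in 0 of the 15 on either strand and in 1.65% of all promoters. A match is a description of letters in this window. *Upk3b* lies at chr5:136038496-136046487 on the plus strand, *Wt1* at chr2:105126529-105173616 on the plus strand, and *Msln* at chr17:25748613-25754378 on the minus strand (GENCODE M21, GRCm38), and all 3 are annotated as protein coding.

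Stromal-2 cells were found in 10 of the 11 tags, and they were scarcest in the esophagus before birth and in the adult, where few cells were counted. The esophagus held 4 of 648 cells at E15 (0.617%), 1 of 988 at E19 (0.101%) and 6 of 340 in the pup (1.76%). The GE-SCJ held 7 of 672 cells at E15 (1.04%), 46 of 1304 at E19 (3.53%) and 19 of 615 in the pup (3.09%). The stomach held 15 of 742 cells at E15 (2.02%), 13 of 1403 at E19 (0.927%) and 27 of 618 in the pup (4.37%). The interval of the E19 GE-SCJ, 2.59 to 4.68%, lay above those of the E19 esophagus and stomach, 0.00256 to 0.563% and 0.494 to 1.58%. For E15 and for pups, the intervals of GE-SCJ and stomach overlapped.

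**Figure D1:**
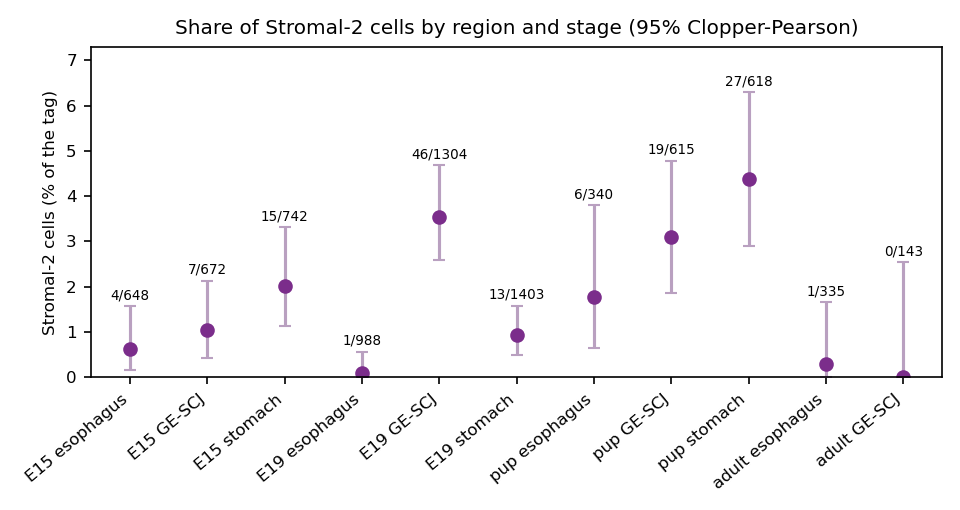
Share of Stromal-2 cells among all cells of each tag, in percent on the y axis, for the 11 region and stage tags on the x axis. Points are shares, bars are 95% Clopper-Pearson intervals, and the numbers give Stromal-2 cells over all cells. The pup stomach has the highest share, at 4.37%, and the adult GE-SCJ has none.

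Summed over regions, Stromal-2 made up 1.26% of cells at E15 (0.825 to 1.84%), 1.62% at E19 (1.24 to 2.09%) and 3.31% in the pup (2.48 to 4.31%). The adult tags gave 1 cell of 478, from the esophagus, and 0 of 143 cells in the adult GE-SCJ, for which the interval reaches 2.55% and a floor of 3 cells would be 2.10%. Against the cells of both stromal labels alone, E15 gave 2.40%, E19 gave 2.87% and the pup gave 14.3%. The step at birth was larger on that scale, and the count of cells labelled Stromal went from 2028 at E19 to 311 in the pup. How much of the outer wall each dissected piece carried is not recorded, and its part in these shares was not tested.

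The label was checked against 12 mesothelial markers. A Stromal-2 cell had UMIs of a median of 10 of the 12, with a range of 2 to 12, and 138 of 139 cells had at least 3. In the Stromal label the median was 1, and in immune cells 0. The second squamous label also had at least 3 in 38 of 40 cells, with a median of 3 and no more than 6. *Upk3b* and *Wt1* were both present in 119 of 139 Stromal-2 cells (85.6%) and in 6 of the 7669 cells of all other labels (0.0782%). The markers thus match a mesothelial-like label.

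Because detection depends on depth, shares of cells with a UMI were also taken after thinning every cell to 5000 UMIs, which left out 19 of the 139 Stromal-2 cells and 101 of the 354 immune cells. Stromal-2 cells had a median of 8353 UMIs, immune cells 8266.5 and Stromal cells 8940. *Upk3b* was found in 96.4% of Stromal-2 cells (96.7% thinned) and in 1.41% of immune cells (1.19% thinned), which should lack it. *Wt1* was found in 89.2% (80.0% thinned) against 0.565% of immune cells (0% thinned). Both genes were thus present in most Stromal-2 cells and rare in immune cells. Among the other labels, *Upk3b* was most frequent in columnar cells, at 12.9% (4.30% thinned), and *Wt1* in Stromal, at 2.50% (1.43% thinned). *Msln*, whose product is a cell-surface glycoprotein, was less widespread, at 59.7% (53.3% thinned) against 2.54% of immune cells (1.19% thinned), and its share depended on stage, as described below.

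Beyond the defining markers, Stromal-2 was set against Stromal over all genes. Of 12032 genes with at least 100 UMIs over both labels, 1186 were higher in Stromal-2 by at least 2-fold, which is 9.86% of them, and 1243 were lower, which is 10.3%. The median log2 ratio of all genes was -0.03. In 675 genes the higher level held in each of the 5 tags with at least 10 Stromal-2 cells together with the 2-fold difference, and in 823 genes the lower level did.

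Of the 17 mesothelial genes counted, 15 were higher in Stromal-2, 1 was lower and 1 was within 2-fold, with a median log2 ratio of 6.13. These genes were among those by which mesothelium is recognised, so the count is a description of the label. *Upk3b*, which encodes a uroplakin-family membrane protein, measured 651 CPM in the E15 stomach, 861 in the E19 GE-SCJ, 1129 in the E19 stomach, 933 in the pup GE-SCJ and 881 in the pup stomach. In these pooled levels no tag stood apart from the others by as much as 2-fold, and the log2 ratio over Stromal was 9.82 (9.31 to 10.39). Medians per cell lay further apart, at 527 CPM in the E15 stomach and 1524 CPM in the E19 stomach. In the E19 stomach, 1 of the 13 cells held 30049 of the 121348 UMIs, which weighs on its pooled level. *Wt1* measured 323, 421, 363, 323 and 407 CPM in the same order, a log2 ratio of 6.53 (6.25 to 6.81) over Stromal. The pooled level of *Wt1* was even across tags, and its medians per cell ran from 291 CPM in the E15 stomach to 430 CPM in the pup stomach.

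*Lrrn4*, a gene of a leucine-rich repeat membrane protein, was at 258 CPM in Stromal-2 and 0.185 CPM in Stromal. *Muc16*, the gene of the large surface mucin that binds mesothelin, was at 322 and 0.246 CPM. *Gpm6a*, a membrane glycoprotein gene also used in neurons, was at 396 and 0.770 CPM. All 3 thus had log2 ratios between 8.95 and 10.23. *Bnc1*, a zinc finger factor, stood at 104 CPM against 0.647 CPM in Stromal, and *Cldn15*, a claudin of tight junctions, at 107 against 1.51 CPM. *Rspo1*, a secreted enhancer of WNT signalling, stood at 326 against 6.16 CPM.

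Some members of the list were not particular to the label. *Msln* and *Upk1b* were at 881 and 2045 CPM in the 40 cells of the second squamous label, above the 331 and 249 CPM of Stromal-2 over all stages. Of those 40 cells 31 came from pups, and in the pup GE-SCJ and stomach Stromal-2 had *Msln* at 925 and 1197 CPM, no longer below 881, and *Upk1b* at 538 and 382 CPM, still below. *Dmkn* was at 2051 CPM in the first squamous label and 438 CPM in Stromal-2. *Aldh1a2*, which makes retinoic acid, was present in Stromal too, at 133 CPM against 574 CPM. *Efemp1* differed little, at 70.8 against 58.5 CPM (log2 ratio 0.29, -0.02 to 0.59). *Tbx18*, a T-box factor known from the mesothelium of other organs, went the other way, at 2.23 CPM in Stromal-2 and 24.3 CPM in Stromal, and rested on 3 UMIs.

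**Figure D2:**
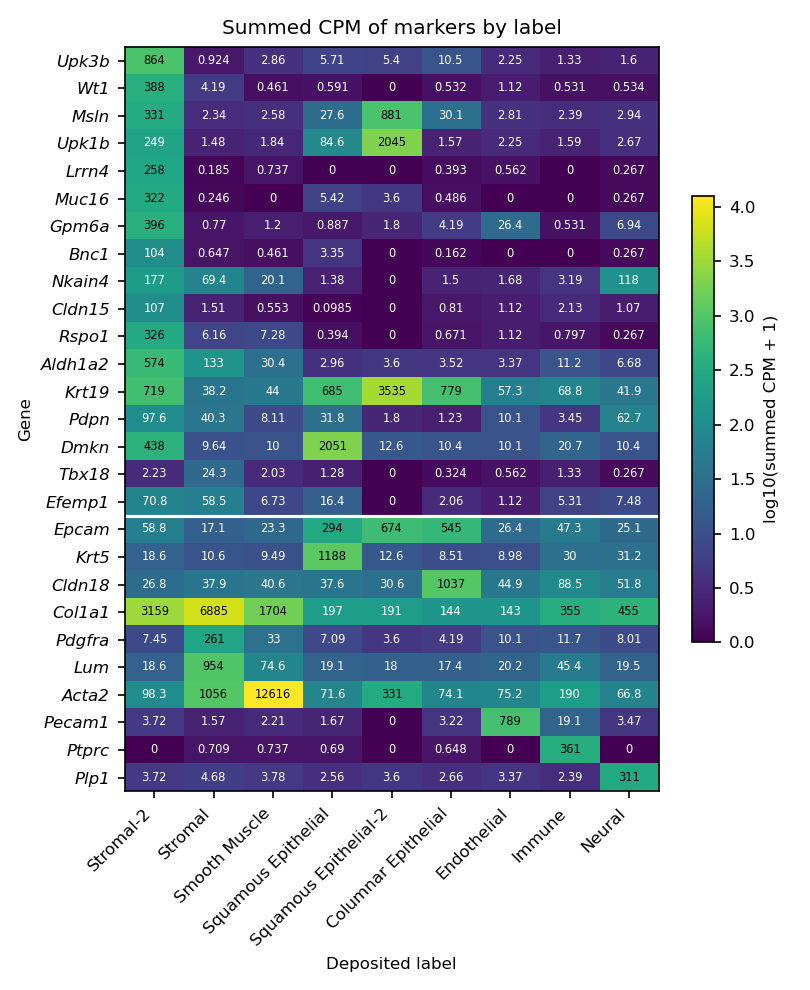
Summed CPM of 17 mesothelial genes (above the white line) and 10 markers of other classes (below it) in the 9 deposited labels, with genes on the y axis and labels on the x axis. Colour is log10(CPM + 1) and the printed number is CPM. The first column is high for most mesothelial genes, the second squamous label is higher for *Msln*, *Upk1b* and *Krt19* over all stages (for *Msln* not against the pup GE-SCJ and stomach tags of Stromal-2), and *Ptprc* is at 0 in Stromal-2.

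Among genes outside the list, 8 stood in the 15 largest log2 ratios over Stromal that kept their direction in all 5 tags. *Podxl*, the gene of podocalyxin, a charged glycoprotein of apical membranes, was at 479 CPM against 0.894 CPM in Stromal, and endothelial cells had 230 CPM. *Lrp2*, the gene of the endocytic receptor megalin, was at 119 against 0.185 CPM. *Col4a4*, a basement membrane collagen chain, was at 130 against 0.986 CPM. These products belong to the apical and basal surfaces of epithelia. *Abcb1b*, an efflux pump, was at 206 against 1.66 CPM over all stages. In Stromal-2 it was mostly postnatal, at 61.8 CPM before and 889 CPM after birth in the GE-SCJ and 16.0 and 504 CPM in the stomach. *Prr15*, *Ptgds*, *Mia* and *Car9* were at 84.2, 78.2, 62.6 and 71.5 CPM, each below 1 CPM in Stromal. *Car9* encodes a carbonic anhydrase of the cell surface, and *Ptgds* a prostaglandin D synthase.

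Keratin and junction genes were mostly higher than in Stromal: 16 of 23 were higher, 1 was lower and the median log2 ratio was 1.64, where 9.86% of all genes were higher and 10.3% lower. Against columnar epithelium, 7 of 25 were higher and 13 lower (median -1.59), where 22.1% of all genes were higher and 13.5% lower. Against squamous epithelium, 4 of 24 were higher and 10 lower (median -0.85), where 18.7% of all genes were higher and 12.0% lower. *Krt19*, a keratin of simple epithelia, was at 719 CPM, close to 685 CPM in the first squamous label and 779 CPM in columnar cells, with 38.2 CPM in Stromal. *Krt7* was at 413 CPM, against 338, 101 and 7.73 CPM in the same 3 labels. *Krt8* and *Krt18* were lower than in columnar cells, at 247 against 1736 CPM and 156 against 970 CPM. *Epcam*, an adhesion molecule of gut epithelium, was at 58.8 CPM, against 545 CPM in columnar cells, 47.3 CPM in immune cells and 17.1 CPM in Stromal. *Epcam* thus stood near the level of immune cells. Of 3 uroplakin genes counted, 2 were higher than in Stromal and 1 within 2-fold.

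Basement membrane genes split. Of 23, 10 were higher than in Stromal, 5 lower and 8 within 2-fold, where 9.86% of all genes were higher and 10.3% lower. *Frem2* and *Npnt*, both genes of basement membrane proteins, were at 437 against 44.2 CPM and 245 against 23.1 CPM. *Col18a1* was at 270 against 63.4 CPM, whereas *Col4a1*, the widespread collagen IV chain, was lower, at 241 against 707 CPM. Fibrillar matrix genes were mostly lower than in Stromal, 18 of 24 with 1 higher and a median of -1.52. *Col1a1* was at 3159 against 6885 CPM, *Col3a1* at 2575 against 8693 CPM, and *Lum*, a small proteoglycan of collagen fibrils, at 18.6 against 954 CPM. The 1 gene that was higher, *Fbln2*, encodes fibulin-2 and was at 597 against 65.9 CPM. *Sparc*, which encodes a collagen-binding protein, was within 2-fold, at 4758 against 3851 CPM.

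The same matrix genes were far above epithelium. Against squamous epithelium, the 730 cells of both squamous labels, of 9400 genes counted 1754 were higher in Stromal-2 by 2-fold (18.7%) and 1130 lower (12.0%), with a median log2 ratio of 0.25. Against columnar epithelium, of 11814 genes 2616 were higher (22.1%) and 1599 lower (13.5%), with a median of 0.24. Fibrillar matrix genes were higher in 21 of 22 against squamous and 23 of 24 against columnar cells, with medians of 3.46 and 3.82 against 0.25 and 0.24 for all genes. Mesothelial genes were higher in 13 of 16 and 15 of 16, and the markers of each epithelium were lower in 8 of 8 squamous and 13 of 13 columnar genes.

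**Figure D3:**
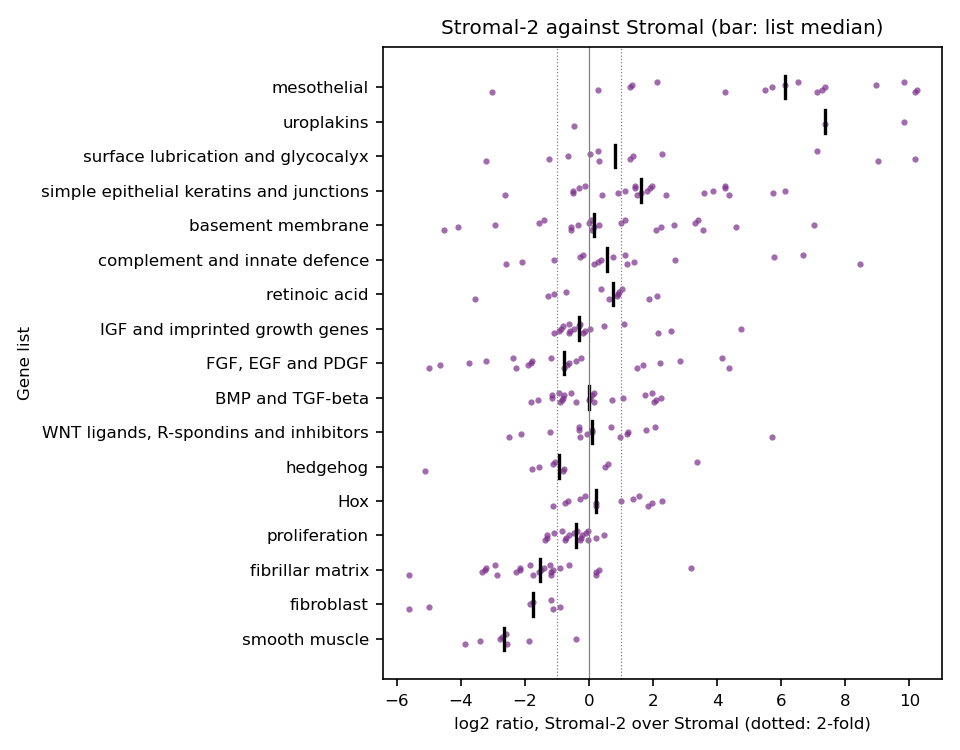
Log2 ratio of Stromal-2 over Stromal (x axis) for each gene of 17 lists (y axis). Points are genes, vertical bars list medians, dotted lines 2-fold. The mesothelial list has a median of 6.13, and the fibrillar matrix, fibroblast and smooth muscle lists have medians of -1.52, -1.75 and -2.66.

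Of 7 fibroblast markers 6 were lower than in Stromal, and of 8 smooth muscle markers 7 were, where 10.3% of all genes were lower and 9.86% higher. The fibroblast list was still abundant, at a summed 10248 CPM in Stromal-2 against 26257 CPM in Stromal, 739 in squamous and 487 in columnar cells, with *Col1a1* its most abundant gene. Single fibroblast genes were far lower. *Pdgfra*, the receptor that marks gut fibroblasts, was at 7.45 CPM against 261 CPM in Stromal, and immune cells had 11.7 CPM. *Dpt* was at 2.98 against 333 CPM, *Aspn* at 6.70 against 532 CPM and *Ebf1* at 1.49 against 149 CPM. *Fam162b*, *Pth1r* and *Foxl1* had 0 UMIs in all 139 cells, which allows up to 2.23 CPM, and were at 51.7, 49.3 and 25.7 CPM in Stromal. These last 7 genes were thus all at or under 7.45 CPM in Stromal-2. Of 14 genes of mesenchymal transition, 10 were lower and 2 higher, with *Zeb2*, a repressor of epithelial genes, at 10.4 against 700 CPM. *Vim*, the intermediate filament of mesenchymal cells, was retained at 783 against 635 CPM. *Dcn*, the gene of decorin, also stayed within 2-fold, at 1846 against 3447 CPM.

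Signalling genes were arranged by role. Among ligands, *Fgf9* was at 177 CPM against 8.57 CPM in Stromal, *Pdgfa* at 156 against 33.6 CPM, *Pdgfc* at 81.2 against 11.3 CPM and *Wnt5a* at 275 against 119 CPM. *Tgfb2* and *Tgfb3* were at 221 against 53.9 CPM and 163 against 38.4 CPM. These ligand genes were higher in Stromal-2 while *Pdgfra*, the receptor for PDGF ligands, was low. Of the whole FGF, EGF and PDGF list, 6 of 21 were higher and 10 lower. Of the BMP and TGF-beta list, 6 of 23 were higher and 4 lower, and of the WNT list 5 of 16 were higher and 3 lower. Shares of this size lie above the 9.86% and 10.3% of all genes in each case, in both directions, and the lists were chosen for this tissue.

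Hedgehog genes showed 1 of 10 higher, the share of all genes (9.86%), and 5 lower, against 10.3% of all genes. *Hhip*, which binds and restrains hedgehog ligands, was at 753 against 72.1 CPM, while *Ptch1*, the receptor and a target, was at 152 against 454 CPM. Of 18 IGF and imprinted growth genes, 4 were higher and 1 lower. *Igfbp6* and *Igfbp5*, binding proteins of IGFs, were at 1009 against 37.6 CPM and 2978 against 675 CPM. *Igf2* was at 1069.5 against 503 CPM, and *Igf1* was lower, at 656 against 1400 CPM.

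Among 21 transcription factors of mesothelium and gut mesoderm, 6 were higher and 6 lower. For these lists the shares of all genes are 9.86% higher and 10.3% lower. *Gata6*, a factor of gut mesoderm and endoderm, was at 336 CPM against 26.9 CPM in Stromal, and it measured 323, 357, 396, 337 and 295 CPM in the 5 tags. *Tcf21*, a factor of fibroblast progenitors, was lower, at 26.1 against 356 CPM. *Barx1*, the stomach mesenchyme factor, did not separate the labels, at 296 against 272 CPM. Of 13 Hox genes 6 were higher and 1 lower, with *Hoxa5* at 169 against 66.0 CPM. Of 12 retinoic acid genes 3 were higher and 3 lower, and of 12 genes of surface lubrication 6 were higher and 2 lower. *Hspb1*, a small heat shock protein gene, was the clearest member of the immediate early and heat shock list, at 1139 against 39.9 CPM, but 3 of its 18 genes were higher and 1 lower, near the shares of all genes.

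Apart from fibroblast genes, markers of other classes were low. With the fibroblast list included, markers of other classes took a median of 1.17% of the UMIs of a Stromal-2 cell, with a range of 0.457 to 6.93%. Most of this share was the fibroblast list, which summed to 10248 CPM. *Ptprc*, the pan-leukocyte gene, was at 0 UMIs in all 139 cells, and *Lyz2* was the immune marker with the most UMIs, at 3.72 CPM. The 6 immune genes summed to 14.9 CPM against 17.5 CPM in Stromal, and both of those counted were within 2-fold. Columnar markers summed to 1813 CPM in Stromal-2, 1952 CPM in Stromal and 2466 CPM in immune cells, and 11 of 12 were within 2-fold of Stromal and 1 higher, where 9.86% of all genes were higher and 10.3% lower. The columnar marker with the most UMIs, *Pgc*, was at 794 CPM here, 861 CPM in Stromal and 1307 CPM in immune cells. The 8 smooth muscle markers summed to 317 CPM, below the 2326 CPM of Stromal and the 530 CPM of immune cells, with *Acta2* at 98.3 CPM. Columnar and smooth muscle sums were thus no higher than in immune cells, which should lack both. Of 6 squamous markers counted, *Krt15* and *Krt14* were higher than in Stromal, at 124 against 19.7 CPM and 69.3 against 5.92 CPM, and the other 4 were within 2-fold. The 8 squamous genes summed to 187 CPM in the E15 stomach, 265 in the E19 GE-SCJ, 231 in the E19 stomach, 452 in the pup GE-SCJ and 392 in the pup stomach, higher in both pup tags. *Kdr*, an endothelial receptor gene, was at 20.9 against 3.20 CPM, with *Pecam1* at 3.72 CPM. The single neural gene counted was within 2-fold of Stromal, and of 4 pericyte genes 3 were lower. *Ano1*, a chloride channel gene of interstitial cells of Cajal, was at 128 against 27.4 CPM, and the other 2 genes of that list were lower. The part of other cells in these values was not tested.

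The 4 hemoglobin genes were higher than in Stromal, and 1 cell decided this. Hemoglobin took 26824 CPM of the E19 stomach tag, and 1 of its 13 cells held 3221 of its 30049 UMIs as hemoglobin. Without that cell, the level of the tag was 372 CPM, that of Stromal-2 went from 2809 to 419 CPM, and all 4 genes were lower than in Stromal, which stood at 996 CPM.

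By overall profile, Stromal-2 was closest to Stromal (r 0.905 by Pearson, from log2(CPM + 10) of 15871 genes), then to smooth muscle (0.890), neural (0.848), endothelial (0.827), columnar (0.817) and the first squamous label (0.814). This is a description across genes of 1 library, and the labels differ in depth. The label is itself a cluster made from these counts, so the neighbours of its cells restate how it was drawn: of the 15 nearest neighbours of its cells, in 30 principal components, 98.9% were Stromal-2 and 0.0959% Stromal. When the mesothelial genes were left out of the components, the share was 98.7%.

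Stromal-2 was next divided by stage. The 86 prenatal cells (E15 and E19) were set against the 53 postnatal cells (52 from pups and 1 adult). Of 4546 genes with at least 50 UMIs, 442 were higher before birth by 2-fold (9.72%) and 327 after birth (7.19%), and the median log2 ratio of all genes was 0.12. Of the mesothelial list, 9 of 16 genes were higher after birth and none before it, with a median log2 ratio of -1.06 and a summed level of 4274 CPM before and 8328 CPM after birth. The other 7 stayed within 2-fold. Among these, *Upk3b* was at 842 CPM before and 919 CPM after birth, *Wt1* at 385 and 396 CPM, and *Lrrn4* at 272 and 220 CPM. The factor *Gata6* was at 338 and 331 CPM. Summed markers of some other classes were also higher after birth: squamous 227 and 525 CPM (most abundant *Krt15*), columnar 1570.2 and 2425 CPM (*Pgc*), endothelial 13.5 and 60.4 CPM (*Kdr*), pericyte 71.8 and 181 CPM (*Kcnj8*) and interstitial cell of Cajal 108 and 278 CPM (*Ano1*). Immune markers were at 14.6 and 15.7 CPM, neural markers at 8.32 and 7.87 CPM and smooth muscle markers at 333 and 276 CPM. The part of other cells in the change across birth was not tested.

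*Slpi*, *C3* and *Msln* were higher after birth. *Slpi*, which encodes a secreted inhibitor of serine proteases, was at 10.4 CPM in the E15 stomach, 296 in the E19 GE-SCJ, 57.7 in the E19 stomach, 23162 in the pup GE-SCJ and 18408 in the pup stomach. *C3*, the central complement component, was at 0, 48.7, 0, 5165 and 3117 CPM in the same order. *Msln* was at 15.6, 76.0, 148, 925 and 1197 CPM. Of 4 genes of surface lubrication counted, 2 were higher after birth and 2 within 2-fold, where 7.19% of all genes were higher after birth, and *Podxl*, a member within 2-fold, was at 537 CPM before and 333 CPM after birth. For *Slpi*, *C3* and *Msln*, both pup tags lay above all 3 prenatal tags, with log2 ratios of prenatal over postnatal of -6.76 (-6.99 to -6.54), -7.18 (-7.80 to -6.62) and -3.97 (-4.38 to -3.58).

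The difference was carried by most cells. *Slpi* had a UMI in 31 of 86 prenatal and 48 of 53 postnatal cells, with a median of 0 and 17075 CPM per cell, and the cell with the most UMIs held 8.09% of the postnatal sum. *C3* had a UMI in 10 of 86 and 51 of 53 cells, and *Msln* in 31 of 86 and 52 of 53. After thinning, these shares were 28.8% and 93.6% for *Slpi*, 9.59% and 97.9% for *C3*, and 23.3% and 100% for *Msln*. In immune cells, *Slpi* was at 47.1 CPM before and 102 CPM after birth, and *C3* at 43.2 and 97.7 CPM. The prenatal *C3* level of Stromal-2, 26.0 CPM, came from 25 UMIs in 10 of the 46 cells of the E19 GE-SCJ, 10 of them in 1 cell, and the other prenatal tags had 0 UMIs. In Stromal, *Slpi* was at 15.1 and 17.7 CPM, *Msln* at 2.38 and 1.72 CPM, and *C3* at 2.80 and 155 CPM.

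**Figure D4:**
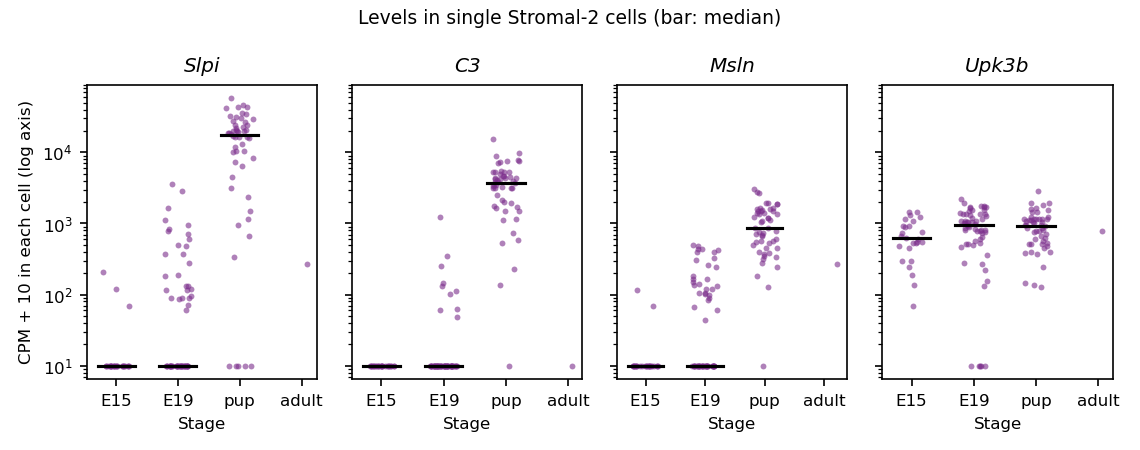
Level of *Slpi*, *C3*, *Msln* and *Upk3b* in every Stromal-2 cell by stage, as CPM + 10 on a log axis. Points are cells and bars are medians, with no bar for the 1 adult cell. The first 3 genes are high in nearly all pup cells and at or near 0 in most prenatal cells, and the points of *Upk3b* overlap at the 3 stages.

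Further genes followed this order. *Sugct* was at 25.0 CPM before and 764 CPM after birth, and *Tdo2*, the gene of a tryptophan-degrading enzyme, at 6.24 and 194 CPM. *Spock2*, *Slc39a8*, *Wfdc1* and *C1s1* went from between 5.20 and 13.5 CPM to between 142 and 320 CPM. *Igfbp6* went from 512 to 2265 CPM, *Hhip* from 420 to 1593 CPM, *Wnt5a* from 171 to 538 CPM and *S100a6* from 2143 to 9173 CPM. For all of these, the later level was the higher in both the GE-SCJ and the stomach, whose tags of 1 stage may hold cells of the same mice. In Stromal, *Igfbp6*, *C1s1*, *Spock2* and *S100a6* were higher after birth too, with log2 ratios of prenatal over postnatal of -2.75, -2.60, -2.95 and -1.25 in the GE-SCJ and -4.03, -2.40, -3.31 and -1.45 in the stomach. *Wnt5a* was within 2-fold there, at 0.21 and -0.20. Of 9 complement and defence genes, 6 were higher after birth and 1 before it, against 7.19% and 9.72% of all genes. Against Stromal over all stages, 7 of 16 genes of that list were higher and 3 lower, against 9.86% and 10.3%.

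*Igf1*, *H19* and *Igf2*, genes of the insulin-like growth factor axis and its imprinted locus, were higher before birth. *Igf1* was at 344, 1033, 1022, 28.7 and 143 CPM in the 5 tags, so that both pup tags lay below the 3 prenatal ones (log2 ratio 3.31, 2.81 to 3.85). *H19*, an imprinted RNA of fetal tissue, was at 2998, 2172, 1772, 201 and 341 CPM, and *Igf2*, its neighbour, at 1519.8, 1233, 1310.3, 552 and 397 CPM. Both were thus lower in the pup tags. The 1 adult cell went against this, with *H19* at 12477 CPM, the highest of all Stromal-2 cells and 48 of the 153 postnatal UMIs, and without it the log2 ratio of *H19* across birth was 3.08 in place of 2.56. Of 18 IGF and imprinted growth genes, 10 were higher before birth, 2 after it and 6 within 2-fold, against 9.72% and 7.19% of all genes. In Stromal, *Igf1* was at 1402 and 1376 CPM and *H19* at 1317 and 1312 CPM before and after birth.

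Against Stromal over all stages, none of 18 proliferation genes was higher and 4 were lower, against 9.86% and 10.3% of all genes. Across birth in Stromal-2, of 15 counted, 14 were higher before birth and none after it, against 9.72% and 7.19%. *Top2a* was at 200 CPM before and 5.25 CPM after birth, and *Pclaf*, a PCNA-binding factor, at 254 and 7.87 CPM. *Hells*, *Crabp1*, *Postn*, *Itih5* and *Tk1* had 0 UMIs in the postnatal cells, which allows up to 7.87 CPM, and were at 136, 96.7, 68.6, 63.4 and 53.0 CPM before birth. The phase calls deposited with the cells placed 12 of 26 cells in S or G2M at E15, 21 of 60 at E19 and 1 of 52 in the pup. The shares, 46.2, 35.0 and 1.92%, were close to the 46.2, 33.0 and 4.50% of Stromal.

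*Fn1*, the fibronectin gene, was at 125, 302, 255, 21.5 and 15.3 CPM in the 5 tags. Its pooled postnatal level of 65.6 CPM rested mostly on the pup esophagus, where 6 cells held 19 of the 25 UMIs. *Mia* was at 85.3 CPM before and 5.25 CPM after birth. *Fgf9* was at 364 CPM in the E15 stomach, 162 and 165 in the E19 tags and 122 and 86.6 in the pup tags. *Hba-a1* was higher before birth through the 1 cell named above, and its log2 ratio moved from 3.93 to 0.53 without it. Purchased wild-type mice were female per the study's methods, and the sex of embryos and pups is not given. *Ddx3y*, a Y-linked gene, was at 67.6 CPM before birth and 0 UMIs after it, and *Xist*, which is expressed from the inactive X, at 526 and 1281 CPM. In the E15 stomach *Xist* was at 20.8 CPM and *Ddx3y* at 156 CPM. Stage and the sex of the mice cannot be told apart here, nor can stage and litter.

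Comparisons within the prenatal cells, and between regions at 1 stage, were added after the data had been seen. Between E15 (26 cells) and E19 (60 cells), 95 of 3369 genes were higher at E15 (2.82%) and 160 lower (4.75%). *Msln*, *Gpm6a*, *Igfbp6* and *Dmkn* were among the lower, with log2 ratios of -2.49, -1.55, -1.58 and -3.02. Regions were pooled here: the stomach gave 15 of the 26 cells at E15, and the GE-SCJ gave 46 of the 60 at E19. The counts and ratios between E15 and E19 thus mix stage and region. Between stomach and GE-SCJ at E19, 43 of 2169 genes were higher in the stomach (1.98%) and 86 lower (3.96%). In the pup the counts were 18 of 1034 (1.74%) and 15 (1.45%). These counts rest on fewer UMIs than the comparison across birth, so the shares are not on the same footing. In the E19 stomach, 1 of the 13 cells held 30049 of the 121348 UMIs, and the comparison of regions at E19 was not repeated without it. The 12 esophageal cells were too few for a comparison across genes.

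The direction across birth in 8 genes was opposite in Stromal-2 and Stromal, in the GE-SCJ and in the stomach alike. Only named genes were counted that had at least 50 UMIs in each comparison and counting intervals that all excluded equal levels across birth. *Col1a1*, *Col1a2* and *Col3a1*, the genes of fibrillar collagens I and III, were higher before birth in Stromal-2 and higher after birth in Stromal, as were *Fstl1*, *Tgfb2*, *Egr1* and *H19*. *Hhip* was higher after birth in Stromal-2 and before birth in Stromal.

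**Figure D5:**
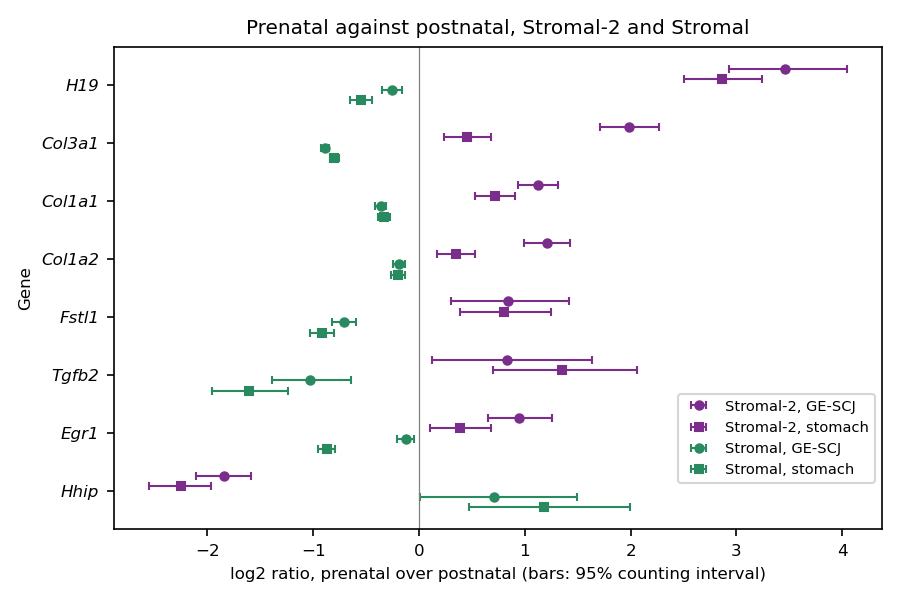
Log2 ratio of prenatal over postnatal level (x axis) for 8 genes (y axis) in Stromal-2 (purple) and Stromal (green), in the GE-SCJ (circles) and the stomach (squares). Bars are 95% counting intervals. *H19* stands at 3.46 and 2.87 in Stromal-2 and at -0.25 and -0.55 in Stromal, and *Hhip* lies on the opposite sides.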

How the data were processed

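The authors dissociated tissue with collagenase, labelled cells with 10x Genomics CellPlex tags, counted UMIs with Cell Ranger 6.1.1 on mm10 (GRCm38), dropped barcodes with too few or too many genes, too many UMIs (their screen for doublets) or a high mitochondrial fraction, and clustered cells in Seurat after regressing out mitochondrial share and cell cycle. They deposited raw UMI counts of 19550 genes, without normalization, with the label, tag, cell cycle phase and scores of each cell as deposited metadata, including the authors' percent of UMIs from mitochondrial genes. Tags and UMI totals matched between the deposited lists in 7808 of 7808 cells.

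Stromal-2 cells held 1342688 UMIs (1176 to 30049 per cell) and 15018 genes with a UMI, which sets the counting intervals given. UMIs were summed over cells and scaled to CPM here; genes with at least 100 UMIs over both labels, or 50 within Stromal-2, were counted, and 2-fold was the threshold. The members, the 28 gene lists and the comparisons were chosen with earlier results of these data known. Named genes are the mesothelial list; from each other list the 4 genes with the most UMIs and those with the highest and lowest ratio; the 15 highest and 10 lowest against Stromal with 1 direction in all 5 larger tags; the 10 highest over every other label; and the 10 in each direction across birth, of which 1 is not reported here. *Krt8*, *Krt18*, *Ptprc* and *Xist* fall outside this rule and were chosen after their values were seen. No doublet caller was run. Neighbours used the 2000 most variable genes after scaling to 10000 UMIs. The ratios were tested on simulated data. Alternatives changed the summing, library size, cells, minimum UMIs, weights and compared labels. Software comprised scanpy 1.11.5, scikit-learn 1.9.0, scipy 1.17.1, matplotlib 3.10.9, pandas 2.3.3 and numpy 2.4.6 under Python 3.11.15.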

Additional observations from a re-analysis of the deposited data

Results flagged for a closer look

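In 8 of 173 named genes, each with at least 50 UMIs in all 4 comparisons, the ratio across birth in Stromal-2 had the opposite direction to that in Stromal in both the GE-SCJ and the stomach, with each counting interval clear of 0. The difference between the labels was not tested, since each tag is 1 pool. Values are log2 ratios of prenatal over postnatal level, first in the GE-SCJ and then in the stomach. *Col1a1*, the first chain gene of collagen I, stood at 1.13 and 0.72 in Stromal-2 and at -0.36 and -0.33 in Stromal. *Col1a2*, its partner chain, stood at 1.21 and 0.35 in Stromal-2 and at -0.19 and -0.20 in Stromal. *Col3a1*, the collagen III gene, stood at 1.98 and 0.46 in Stromal-2 and at -0.89 and -0.80 in Stromal. *Fstl1*, a secreted follistatin-like protein gene, stood at 0.84 and 0.81 in Stromal-2 and at -0.71 and -0.92 in Stromal. *Tgfb2*, a TGF-beta ligand gene, stood at 0.84 and 1.35 in Stromal-2 and at -1.02 and -1.60 in Stromal. *Egr1*, an immediate early factor, stood at 0.95 and 0.39 in Stromal-2 and at -0.12 and -0.87 in Stromal. *H19*, an imprinted fetal RNA, stood at 3.46 and 2.87 in Stromal-2 and at -0.25 and -0.55 in Stromal. *Hhip*, the hedgehog-binding protein gene, stood at -1.85 and -2.25 in Stromal-2 and at 0.71 and 1.18 in Stromal. *Postn* had the same opposite directions but under 50 UMIs in the stomach cells of Stromal-2, with log2 ratios of 3.62 and 3.23 there and -0.55 and -2.48 in Stromal. With the esophagus included, *Col1a1* in Stromal was at 6906 CPM before and 6530.04 CPM after birth, *Col1a2* at 5886 and 5004 CPM, and *H19* at 1317 and 1312 CPM, so the opposite direction in these 3 genes is seen within the 2 regions only. Cells of the 2 labels came from the same tags, apart from the adult GE-SCJ, which held 15 Stromal cells and 0 Stromal-2 cells. Those 15 cells are part of the postnatal GE-SCJ level of Stromal. The pools of mice were otherwise shared between the labels.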

How the results depend on the processing

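Of the summary values, 38 recomputed values stayed close to those reported and 22 were counted as moved. For r with Stromal and for the share of Stromal-2 neighbours no limit of closeness was set, and each of their alternatives was counted as moved. Counts moved mainly with the minimum of UMIs, which sets how many genes are tested: against Stromal from 2429 genes past 2-fold to 3687 at 20 UMIs and 1119 at 500, against squamous epithelium from 2884 to 4798 and 878, against columnar epithelium from 4215 to 2200 at 500, and across birth from 769 to 1628 at 20 and 396 at 100. Across birth, the count was 376 in the stomach alone (28 against 27 cells), 486 in the GE-SCJ alone (53 against 19) and 505 for E19 against pup, each with fewer cells. The balance of higher and lower genes moved too: from 1186 and 1243 against Stromal to 2267 and 1420 at 20 UMIs and 415 and 704 at 500, from 1754 and 1130 against squamous epithelium to 382 and 496 at 500, from 2616 and 1599 against columnar epithelium to 1103 and 1097 at 500, and from 442 and 327 across birth to 246 and 259 for E19 against pup. With stromal and smooth muscle labels as denominator, the share was 2.42% at E19 and 8.43% in the pup. The r with Stromal was 0.765 over 2000 variable genes, 0.892 with CPM + 1 and 0.886 after thinning. The share of Stromal-2 neighbours was 98.7% with 50 neighbours, 96.8% after thinning to 2000 UMIs and 98.7% without the mesothelial list. With at least 2 UMIs required, *Upk3b* was found in 90.6%, *Wt1* in 71.9% and *Msln* in 45.3% of cells, and *Wt1* in 80.0% after thinning. Of 2649 recomputed values of named genes, 327 moved, among them genes within 2-fold whose sign changed, and 8 values past 2-fold reversed, all hemoglobin against Stromal: without the 1 cell, *Hba-a1*, *Hba-a2*, *Hbb-bs* and *Hbb-bt* had log2 ratios of -1.36, -0.98, -1.31 and -1.10, and without the E19 stomach tag -1.62, -1.09, -1.49 and -1.28. These alternatives on tags, on that cell, on the GE-SCJ, on E19 against pup, on the adult cell and on the library size without *Slpi* and *C3* were chosen after seeing the data. Apart from the adult GE-SCJ tag, which held no Stromal-2 cell, Stromal-2 and Stromal come from the same tags and could be paired by tag. No test was made between them, since the label is a cluster drawn from these counts. Their differences within tags are given as counts of genes with 1 direction. Stomach against esophagus and its alternatives were not run, with 12 esophageal cells. Genes under the minimum of UMIs were not counted, so the depth sets which genes can be compared.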

Other observations

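Outside the label, 2 cells had a majority of Stromal-2 cells among their 15 nearest neighbours. Of the 6 other cells with both *Upk3b* and *Wt1*, 4 were columnar, 1 Stromal and 1 smooth muscle, and the highest number of the 12 mesothelial markers in a cell was 11 in the columnar and in the smooth muscle label. The 14 Stromal-2 cells with the largest share of markers of other classes were also placed by tag. That share includes the fibroblast list. Of these cells, 8 came from the 46 of the E19 GE-SCJ, 2 from the 4 of the E15 esophagus and 2 from the 6 of the pup esophagus. The others were the single cell of the E19 esophagus and 1 of the 13 of the E19 stomach.

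The 1 adult cell, from the esophagus, had 3847 UMIs and 6 of the 12 markers. It had 1 UMI of *Slpi*, none of *C3* and 48 of *H19*.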
